A study of Homo sapiens with 2 samples.

Results

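The Hippo pathway genes described here were 10 named genes: YAP1 and WWTR1, which encode the coactivators YAP and TAZ; TEAD1, TEAD2, TEAD3 and TEAD4, which encode their DNA-binding partners; and LATS1, LATS2, STK3 and STK4, which encode the kinases upstream of them. Every row of the deposited transcript table carrying one of these gene names was taken, and 8 of the 10 genes had rows, with 22 of the 47892 transcripts in all. TEAD3 and TEAD4 had no row and were not analysed here. The group was chosen by its pathway and by the listed values of YAP1, which was among the genes highest in the resistant library, so the YAP1 difference is given as a description, with no test.

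In this pathway STK4 and STK3 (the kinases MST1 and MST2) phosphorylate and activate LATS1 and LATS2, which in turn phosphorylate YAP and TAZ. Phosphorylated YAP and TAZ are held in the cytoplasm or degraded, and unphosphorylated YAP and TAZ enter the nucleus, bind TEAD factors and switch on genes of growth and adhesion such as CCN1 and CCN2. YAP is a known oncogene in epithelial cancers, ovarian carcinoma among them.

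Total RNA was taken from SKOV3, a human ovarian cancer cell line labelled wild type in both samples and grown in serum-containing McCoy's 5A medium. The parental group is 1 library of untreated cells. The resistant group is 1 library of a derivative cultured without a break for 3 months or longer with olaparib, an inhibitor of the DNA repair enzyme PARP, at its half-IC50. The labels do not say whether the derivative is 1 clone or a pool. Libraries were made after depletion of ribosomal RNA. With 1 library per group there is no replicate spread, so no difference below has a replicate check, and all values describe these 2 libraries.

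Each transcript has 1 normalized value per library, called the listed value here, in a unit the header does not name. A gene's value is the sum over its listed transcripts, and its log2 ratio is resistant over parental after adding a pseudocount of 1 to each, which understates the differences of low genes. A gene was called expressed where the mean of its 2 values was at least 1, which held for 5767 of 16978 genes. The listed values summed to 47632 in resistant and 46879 in parental cells, and the sequencing depth is unknown. Expressed genes had a median log2 ratio of 0.16. Of 11 markers of the line 8 had rows and KRT8, KRT18, KRT7 and ERBB2 were expressed, KRT19, EPCAM, CDH1 and PAX8 had a mean under 1, and WT1, MUC16 and MSLN had no row. None of 5 leukocyte and 4 endothelial markers had a row, and of 6 fibroblast markers 3 had rows, all with a mean under 1. Coding transcripts can lack a row, as given below for the pathway genes. A missing row therefore does not show that a gene was not expressed.

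None of the 22 transcripts is annotated as protein-coding. In GENCODE release 29 on GRCh38, 14 are processed transcripts and 7 retain an intron. The remaining one, WWTR1-OT1, was not found there by its identifier. GENCODE also holds 9 protein-coding transcripts of YAP1, 8 of WWTR1 and 6 of TEAD1, and none of these is a row of the table. The values of these 8 genes below are therefore of non-coding models, with WWTR1-OT1 of no type. Many of their bases lie in exons that the coding transcripts also use, and whether reads of coding transcripts contribute to these values was not tested.

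The structures that the results turn on are shown as sequence, 5′ to 3′ on the gene's strand, read from the GENCODE release 29 transcripts. Capitals mark bases outside every exon of the gene's protein-coding transcripts, and lower case marks bases inside one. The first is the transcript behind the YAP1 difference, from its start through its second exon, at chr11:102226973-102227581 on the plus strand. Its first exon of 111 bases, in capitals, joins directly to an exon of the coding transcripts.
YAP1-206: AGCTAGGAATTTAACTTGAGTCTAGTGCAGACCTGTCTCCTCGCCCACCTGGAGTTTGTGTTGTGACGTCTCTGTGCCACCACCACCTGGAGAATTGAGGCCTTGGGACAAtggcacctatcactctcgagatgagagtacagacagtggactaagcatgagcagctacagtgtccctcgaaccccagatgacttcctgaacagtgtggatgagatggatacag
The leading parental YAP1 transcript is shown next, around the point where it reads on into an intron at chr11:102186072-102186251 on the plus strand. The intron begins with the bases GT, and an in-frame stop ends 116 bases into it.
YAP1-205: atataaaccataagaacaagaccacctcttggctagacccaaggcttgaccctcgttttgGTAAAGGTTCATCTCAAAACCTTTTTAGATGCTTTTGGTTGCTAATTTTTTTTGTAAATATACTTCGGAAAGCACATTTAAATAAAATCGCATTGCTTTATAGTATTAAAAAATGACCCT
The listed TEAD1 transcript is shown around a short coding exon that runs on into intronic bases of the coding transcripts on either side, at chr11:12864778-12864960 on the plus strand.
TEAD1-202: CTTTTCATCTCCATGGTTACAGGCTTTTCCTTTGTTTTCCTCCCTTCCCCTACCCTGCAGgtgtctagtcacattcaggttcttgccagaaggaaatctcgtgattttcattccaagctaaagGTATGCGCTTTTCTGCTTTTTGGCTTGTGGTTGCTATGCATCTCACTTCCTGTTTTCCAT
The listed LATS2 transcript is shown from its start through its second exon, which lie within chr13:20991272-21023129 on the minus strand. Its own first exon holds 67 bases in capitals.
LATS2-202: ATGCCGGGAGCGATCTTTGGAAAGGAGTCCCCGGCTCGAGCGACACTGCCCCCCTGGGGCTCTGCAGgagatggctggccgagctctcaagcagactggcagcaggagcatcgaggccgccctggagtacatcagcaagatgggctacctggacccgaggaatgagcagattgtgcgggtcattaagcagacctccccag

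YAP1 was the member with the largest difference. Its summed listed value was 14.8 in resistant cells and 0.525 in parental cells, a log2 ratio of 3.37. The ratio was higher than that of 99.9% of expressed genes. In bulk RNA, more cells carrying a transcript and more of it per cell cannot be told apart.

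Nearly all of the YAP1 difference lay in YAP1-206, which spans chr11:102226973-102230502 within the gene at chr11:102110461-102233423. Its listed value was 13.8 in resistant and 0.0757 in parental cells, a ratio of 182. The parental value lies below 0.1, so the size of this ratio carries no statement of precision. With the pseudocount of 1 the log2 ratio was 3.78. YAP1-206 has 3 exons and 1025 bases, of which 914 (89.2%) lie in exons of coding transcripts and 349 are coding there. These are the last exons of the gene, which encode the end of the protein and the start of the 3′ untranslated region. The authors' deposited table gives YAP1-206 a log2 fold change of 7.16 with an adjusted p of 8.11e-34. That p compares 2 libraries, not 2 conditions, as do all p-values quoted from that table.

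YAP1-205, the other listed transcript, differed much less. It covers 2 internal exons, of which the second runs on into an intron, and its listed value was 1.001 in resistant and 0.449 in parental cells, a ratio of 2.23. The authors' deposited table gives it a log2 fold change of 0.87 with an adjusted p of 0.0740. Only 29.3% of its 785 bases lie in exons of coding transcripts. The pair of transcripts thus covers separate stretches of YAP1, and the stretch at the end of the gene showed the larger difference by far.

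**Figure D1:**
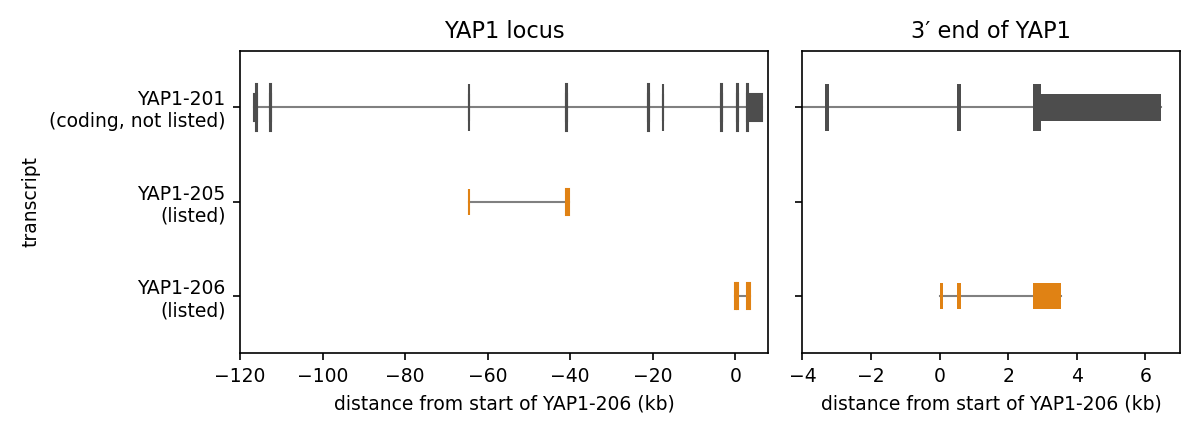
Exons of the listed transcripts YAP1-206 and YAP1-205 beside those of the coding transcript YAP1-201, plotted as distance from the start of YAP1-206 along the gene; boxes are exons, taller in the coding parts of YAP1-201, and the right panel enlarges the 3′ end. YAP1-205 lies in the middle of the gene and YAP1-206 at its end, over the last 2 exons of YAP1-201, with a first exon of its own.

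The shares of the YAP1 transcripts differed between the libraries, although both transcripts had a higher value in resistant cells. YAP1-206 held 14.4% of the gene's listed value in parental cells and 93.2% in resistant cells. YAP1-205 held 85.6% and 6.78%. This shift of 78.8 percentage points was larger than the largest shift in 99.5% of the 5032 expressed genes with at least 2 transcripts, whose median was 16.2 points. The shift restates the YAP1-206 difference, which lay behind the choice of YAP1, and is not a separate result.

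WWTR1, the gene of TAZ, had a higher value in resistant cells at a low level. Its summed listed value was 0.951 there and 0.309 in parental cells, a log2 ratio of 0.58 with a mean under the expression threshold. The sum hid transcripts that differed in opposite directions.

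WWTR1-210, which retains an intron, was listed at 0.841 in resistant and 0.0487 in parental cells, a ratio of 17.3. This parental value too lies below 0.1, and with the pseudocount of 1 the log2 ratio was 0.81. The authors' deposited table gives WWTR1-210 a log2 fold change of 3.81 with an adjusted p of 5.28e-14. Of its bases, 62.9% lie in exons of coding transcripts. WWTR1-OT1, whose row spans the 5′ portion of the gene, went the other way, at 0.00384 in resistant and 0.230 in parental cells. WWTR1-207, which lies over the same 5′ stretch, was listed at 0.107 and 0.0311.

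Both 5′ transcripts carry a mark that WWTR1-210 does not. The authors' deposited table gives WWTR1-OT1 a log2 fold change of −12.1 with an adjusted p of 3.23e-28, and gives WWTR1-207 10.6 with 1.99e-19. Fold changes of this size arise in that table where the ratio behind them has a count of 0 in 1 library, resistant for WWTR1-OT1 and parental for WWTR1-207. The listed values beside them are above 0, so the listed values and the deposited fold changes of these transcripts differ, and no fold is given for them. In shares, WWTR1-OT1 led the parental library with 74.2% and WWTR1-210 the resistant library with 88.4%. With values at a count of 0 set to 0, WWTR1-OT1 held 82.5% in parental cells. Without WWTR1-OT1, WWTR1 had 0.947 in resistant and 0.0798 in parental cells, a log2 ratio of 0.85, and WWTR1-210 led in both libraries, with 61.02% in parental and 88.7% in resistant cells.

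**Figure D2:**
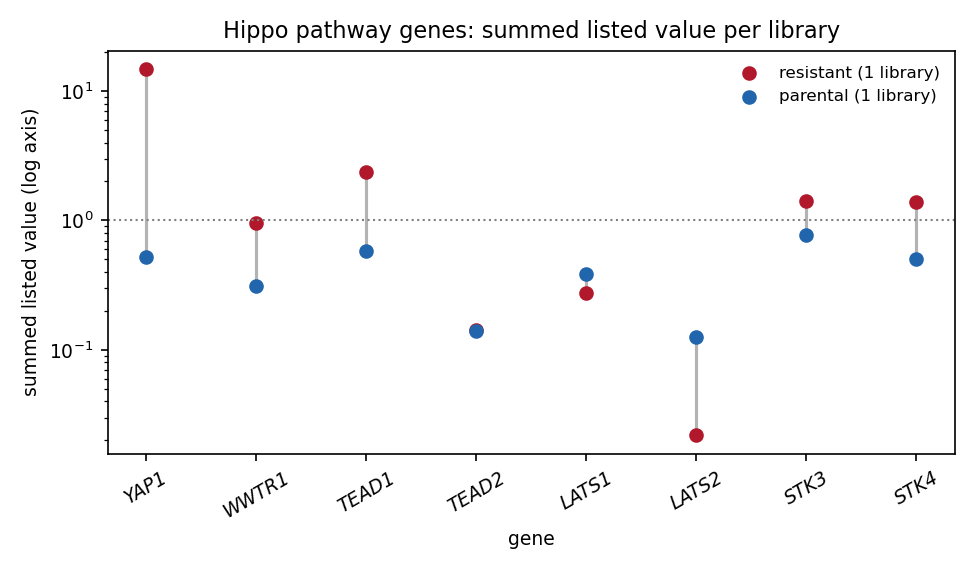
Summed listed values of the 8 pathway genes with rows, 1 point per library, on a log axis. YAP1 is the gene with the widest gap, 14.8 against 0.525, and TEAD1, STK3, STK4 and WWTR1 are also higher in resistant cells, while LATS1 and LATS2 are lower.

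Of the TEAD factors, TEAD1 differed and TEAD2 hardly did. TEAD1, which carries YAP and TAZ to their target genes, was listed through 1 transcript, TEAD1-202, at 2.37 in resistant and 0.585 in parental cells. The ratio of listed values was 4.04 and the log2 ratio 1.09, higher than in 93.1% of expressed genes. The authors' deposited table gives TEAD1-202 a log2 fold change of 1.73 with an adjusted p of 0.000152. Only 11.3% of its 1134 bases lie in exons of coding transcripts, so most of this row covers sequence that the coding transcripts splice out or do not reach.

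TEAD2 was low in both libraries. Its summed listed value was 0.143 in resistant and 0.139 in parental cells, a log2 ratio of 0.00. TEAD2-205 made up 88.8% and 93.7% of it. The authors' deposited table gives adjusted p of 1 for TEAD2-205 and 0.759 for TEAD2-207.

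The LATS kinases, which inhibit YAP and TAZ, were the members with lower values in resistant cells, both at low levels. LATS2 was listed at 0.0219 in resistant and 0.126 in parental cells, through LATS2-202 alone. The authors' deposited table gives LATS2-202 a log2 fold change of −2.78 with an adjusted p of 8.28e-08. With the pseudocount of 1 the log2 ratio was −0.14, because both values lie far below 1. LATS1 was listed at 0.276 and 0.385 through LATS1-206, and the authors' deposited table gives it −0.76 with an adjusted p of 0.128. Both listed transcripts consist mostly of exons of the coding transcripts, 86.5% of bases for LATS2-202 and 82.8% for LATS1-206.

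The upstream kinases were higher in resistant cells when summed. STK4 had 1.38 in resistant and 0.504 in parental cells, a log2 ratio of 0.66 with a mean just under the expression threshold. STK3 had 1.42 and 0.775, a log2 ratio of 0.44, higher than in 69.2% of expressed genes. Both ratios were below 2-fold on this scale.

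STK4 was listed through 2 transcripts from the start of the gene, and both were higher in resistant cells. STK4-204 was listed at 0.748 and 0.222 and STK4-206 at 0.635 and 0.282. The authors' deposited table gives STK4-204 a log2 fold change of 1.46 with an adjusted p of 0.00311, and STK4-206 0.89 with 0.0890. The shares moved by 10.0 percentage points, a smaller shift than in most expressed genes.

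STK3 was the gene with the most listed transcripts, 10, and they did not move together. A higher value in resistant cells was listed for 6 of them and a lower value for 4. STK3-210 was listed at 0.563 in resistant and 0.136 in parental cells, STK3-214 at 0.388 and 0.213, and STK3-209 at 0.258 and 0.0292. STK3-203 ran the other way, at 0.00275 and 0.156. In the authors' deposited table STK3-210 has a log2 fold change of 1.76 with an adjusted p of 0.00021, STK3-209 2.82 with 9.27e-08, and STK3-203 −13.3 with 4.29e-36. The last of these rests on a count of 0 in resistant cells, and 3 further STK3 transcripts have a count of 0 in 1 library. The leading transcript was STK3-214 in parental cells with 27.6% and STK3-210 in resistant cells with 39.8%.

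**Figure D3:**
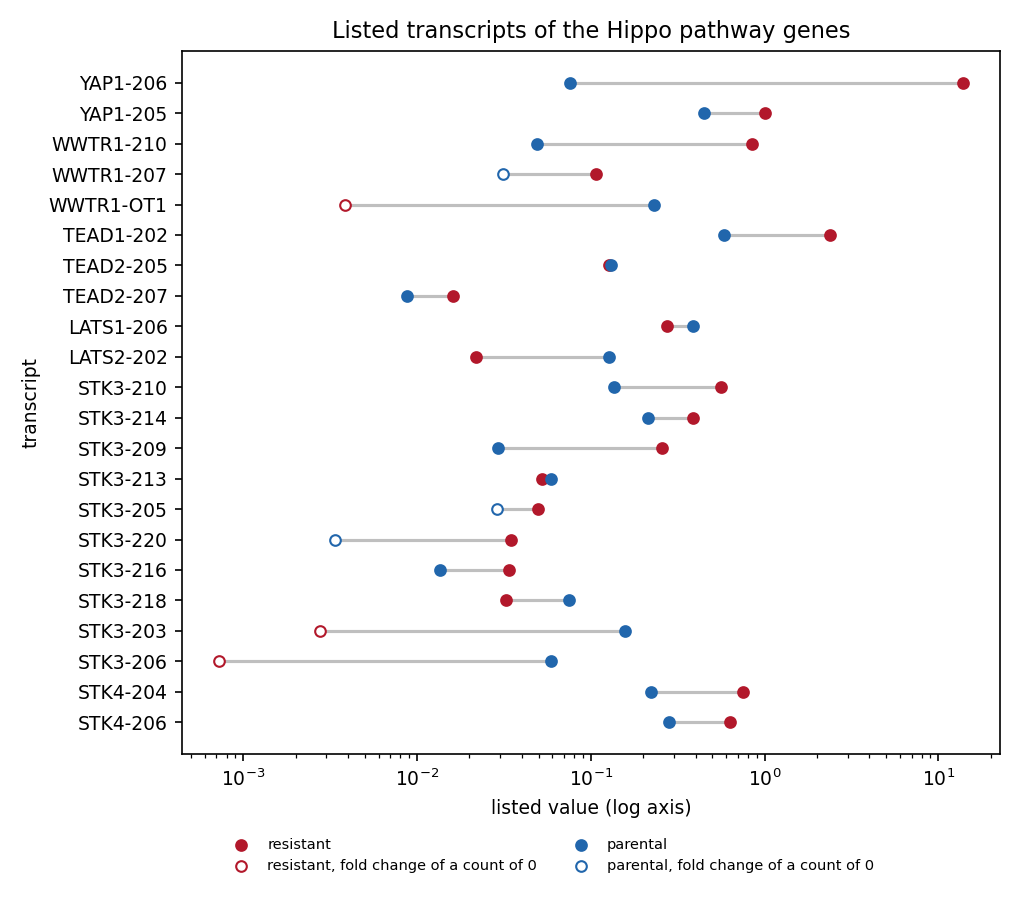
Listed values of all 22 transcripts of the pathway genes in the resistant (red) and parental (blue) library on a log axis, joined by a line; open points mark a library in which the deposited fold change corresponds to a count of 0. YAP1-206 spans the gap from 0.0757 to 13.8, and the STK3 transcripts lie in both directions.

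Counted over the group, 6 of the 8 genes with rows had a higher value in resistant cells and 2 a lower one. Among all 5767 expressed genes, 3568 had a log2 ratio above 0 and 2199 one below. Only YAP1, TEAD1 and STK3 passed the expression threshold. YAP1 and TEAD1 were higher by 2-fold or more, beside 8.50% of all expressed genes, and 0 were lower by as much, beside 4.37%. YAP1 was part of the reason for the choice, and TEAD1 passed the filter through the library in which it was high, so nothing is read from these counts.

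Of the 22 transcripts, 15 had a larger listed value of at least 0.1. YAP1-206 and TEAD1-202 were 2-fold or more higher on the log2 scale with pseudocount 1, beside 2.82% of such transcripts in the table. Lower by as much were 0 of the 15, beside 1.86%. Apart from YAP1-206, TEAD1-202 and the other listed YAP1 transcript, all had both values under 1. With this pseudocount they could not reach 2-fold in either direction. YAP1-206 also lay behind the choice of the genes, so nothing is read from these 2-fold counts. Of the 22 transcripts in the authors' deposited table, 9 have an adjusted p under 0.05 and a higher value, beside 23.6% of all transcripts, and 5 have one and a lower value, beside 22.3%. A count of 0 in resistant cells stands behind 3 of them, beside 11.4%, and in parental cells behind 3 others, beside 10.9%. The leading transcript differed between the libraries in 4 of the 5 genes with at least 2 transcripts, YAP1, WWTR1, STK3 and STK4, and this was so in 39.3% of all genes with at least 2 transcripts and in 34.9% of the expressed ones. YAP1 prompted the choice of the genes, and WWTR1 is counted only through WWTR1-OT1, so nothing is read from this count either.

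Around the 10 genes, 4 lists of pathway genes were read. The up to 6 genes of largest difference named per list, and CCN1, rest on non-coding or unmatched rows, apart from 2 rows of FRMD6. Their values are therefore not given as levels of the coding transcripts. Of 44 upstream regulators and adaptors of the kinases, 34 had rows and 16 were expressed, with a median log2 ratio of 0.21 beside 0.16 for all expressed genes. FRMD6, an activator of the pathway at the cell membrane, had 2.75 in resistant and 0.601 in parental cells, and MAP4K5, a kinase of the family that can activate LATS, had 13.2 and 6.06. These were the 2 of 16 genes at least 2-fold higher, beside 8.50% of all expressed genes, and 0 were at least 2-fold lower, beside 4.37%. FRMD6 passed the filter on level through the library in which it was high, and 2 of its 5 rows are annotated as protein-coding. Among the kinases that act on the cascade, TAOK1 had 2.03 and 0.856, MAP4K4 2.65 and 1.64, and TAOK3 0.789 and 1.57. The kinase gene STK11 had a row only under the name STK11-OT1, which had no match by identifier in GENCODE, so its 1.38 and 0.816 are not given as the level of the kinase.

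Phosphatases and the STRIPAK complex counteract the kinases. Of 26 such genes 23 had rows and 11 were expressed, with a median log2 ratio of 0.08. SIKE1, a STRIPAK subunit, had 12.0 in resistant and 5.17 in parental cells, and PPP1R13B, a partner of protein phosphatase 1, had 1.53 and 4.16. These were the 1 of 11 genes 2-fold or more higher and the 1 as much lower, beside 8.50% and 4.37% of all expressed genes. The lower value of PPP1R13B lay mostly in PPP1R13B-OT1, listed at 0.00555 and 1.99 and not matched in GENCODE, and without that row the gene had 1.52 and 2.18, a log2 ratio of −0.33 that is not past 2-fold. The catalytic subunit PPP1CA had 22.5 and 36.8 and the scaffold PPP2R1A 1.45 and 2.26, while PDCD10 had 1.96 and 0.721 and TP53BP2 1.71 and 0.603.

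Anchors, degradation factors and nuclear cofactors act on YAP and TAZ directly. Of 34 such genes 24 had rows and 13 were expressed, with a median log2 ratio of 0.28. The kinase YES1, for which YAP is named, had 17.4 in resistant and 3.87 in parental cells, a log2 ratio of 1.92. AMOTL2, an angiomotin that binds YAP in the cytoplasm, had 3.56 and 14.2, a log2 ratio of −1.74. YWHAZ, which binds phosphorylated YAP, had 3.31 and 1.11, and made up with YES1 the 2 of 13 genes past 2-fold higher, beside 8.50% of all expressed genes, while AMOTL2 was the 1 past 2-fold lower, beside 4.37%. CTNNA1 of the adherens junction had 12.1 and 24.7, its partner CTNNB1 5.63 and 2.55, and BTRC, which leads phosphorylated YAP to degradation, 1.82 and 0.502.

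The expressed YAP and TAZ target genes had mostly lower listed values in the library with the higher YAP1. Of 30 target genes 20 had rows and 9 were expressed, with a median log2 ratio of −0.36. Among them AMOTL2, THBS1, CRIM1, ARHGEF17, ASAP1 and TEAD1 rest on non-coding rows alone. A ratio below 0 was found for 8 of the 9, beside 38.1% of all expressed genes. The exception, TEAD1, is itself one of the pathway genes, and without it the median was −0.46. Of the 8, AREG, with 0.891 in resistant and 1.22 in parental cells, passed the filter through the library in which it was high. MYOF and DOCK5 differed little, at log2 ratios of −0.01 and −0.14. Over all 20 with rows, most of them low, 11 were below 0 and 9 above, and the median was −0.03. The share below 0 among all genes with rows is not given here, so nothing is read from this count.

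AMOTL2, also a target, had the largest difference of the list. THBS1, a secreted adhesion protein, had 2.32 in resistant and 4.34 in parental cells. CRIM1 had 1.20 and 2.48, ARHGEF17 1.46 and 2.63, and ASAP1 1.33 and 1.99. CCN1, among the most used readouts of YAP activity, had 0.509 and 1.19, with a mean under the threshold, and CCN2 had no row and was not analysed here. Other targets under the threshold went the other way, among them, chosen after their values were seen, the receptor kinase AXL with 0.781 and 0.197 and BIRC3 with 0.423 and 0.0471. TEAD1, which passed the filter through the library in which it was high, was the 1 of 9 genes at least 2-fold higher, and AMOTL2 the 1 at least 2-fold lower, beside 8.50% and 4.37% of all expressed genes.

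**Figure D4:**
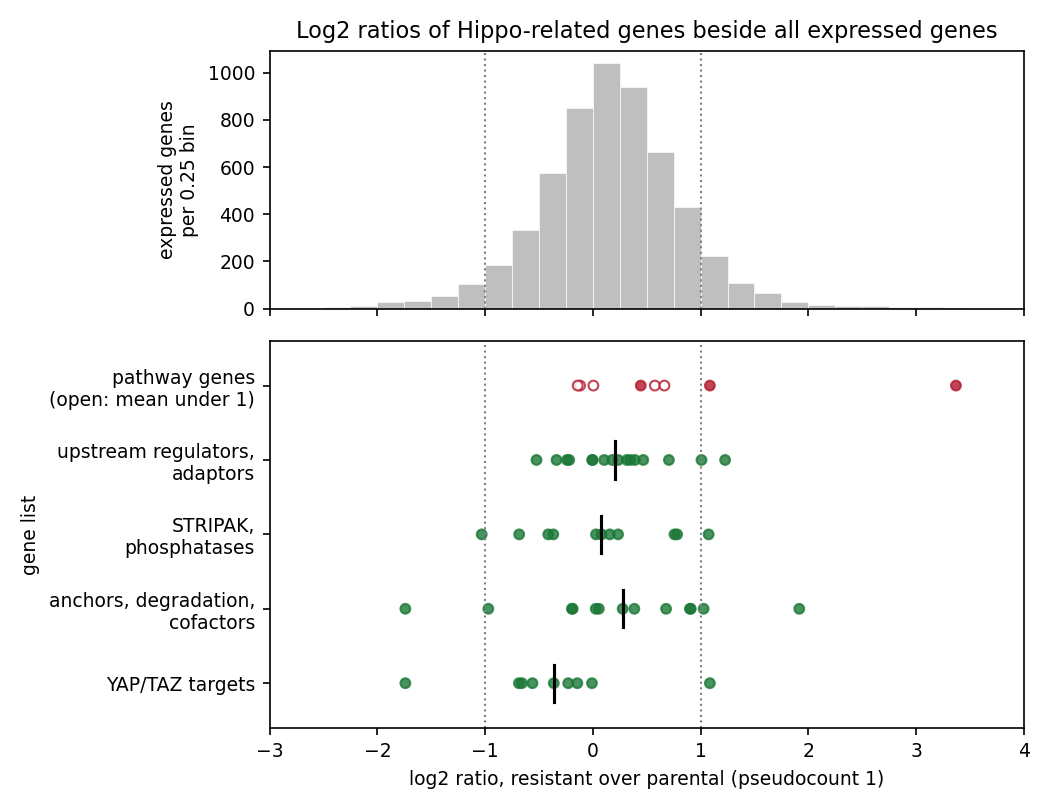
Top, histogram of the log2 ratios of the 5767 expressed genes, of which 9 lie outside the range drawn; bottom, the ratios of the 8 pathway genes with rows (open where the mean is under 1) and of the expressed genes of the 4 lists, with a black bar at each list's median and dotted lines at 2-fold. YAP1 stands at 3.37, and the expressed target genes other than TEAD1 stand below 0.

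The genes beside YAP1 on chromosome 11 were read to set YAP1 among its neighbours. Within 1 Mb of the listed YAP1 transcripts 10 other genes had rows, of which BIRC2, CFAP300 and DYNC2H1 were expressed. With the pseudocount of 1, 0 of the 10 were at least 2-fold higher or lower, beside 8.50% and 4.37% of all expressed genes. All but BIRC2, CFAP300 and DYNC2H1 had both values under 1, so with this pseudocount they could not reach 2-fold in either direction. The shares beside them are of expressed genes only, so nothing is read from this count. BIRC2, an inhibitor of apoptosis 117 kb away, had 5.08 in resistant and 3.22 in parental cells, a log2 ratio of 0.53. Its relative BIRC3, 87.0 kb away, had 0.423 and 0.0471. CFAP300, on the other side at 79.0 kb, had 3.46 and 3.11, a log2 ratio of 0.12. These distances are from the listed transcripts, and the gene itself starts nearer to CFAP300.

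Farther out, DYNC2H1, a motor protein of cilia, had 1.48 in resistant and 0.710 in parental cells. The low genes TMEM123 and WTAPP1 had 0.395 and 0.0302, and 0.830 and 0.0496. MMP7, AP001527.1, AP001527.2 and AP001486.2 were under 0.2 in both libraries, with log2 ratios from −0.12 to 0.04. The 3 low genes BIRC3, TMEM123 and WTAPP1 were past 2-fold with a pseudocount of 0.1, at log2 ratios of 1.83, 1.93 and 2.64, where YAP1 was at 4.57. The expressed neighbours ranged from 0.12 to 0.54. From the largest transcript alone DYNC2H1 was −0.13 and BIRC2 −0.01, and after rescaling by the median ratio CFAP300 was −0.06, so their directions turned. Deposited log2 fold changes of the transcript highest in resistant cells were 5.23 for WTAPP1, 3.41 for TMEM123 and 2.28 for BIRC2. For BIRC3 this value was 9.54, with a count of 0 in parental cells. Other deposited values lay below 0, among them −1.89 for AP001527.1, −0.13 for CFAP300, and −0.31 and −0.14 for BIRC2. Whether the region as a whole differed was not tested.

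**Figure D5:**
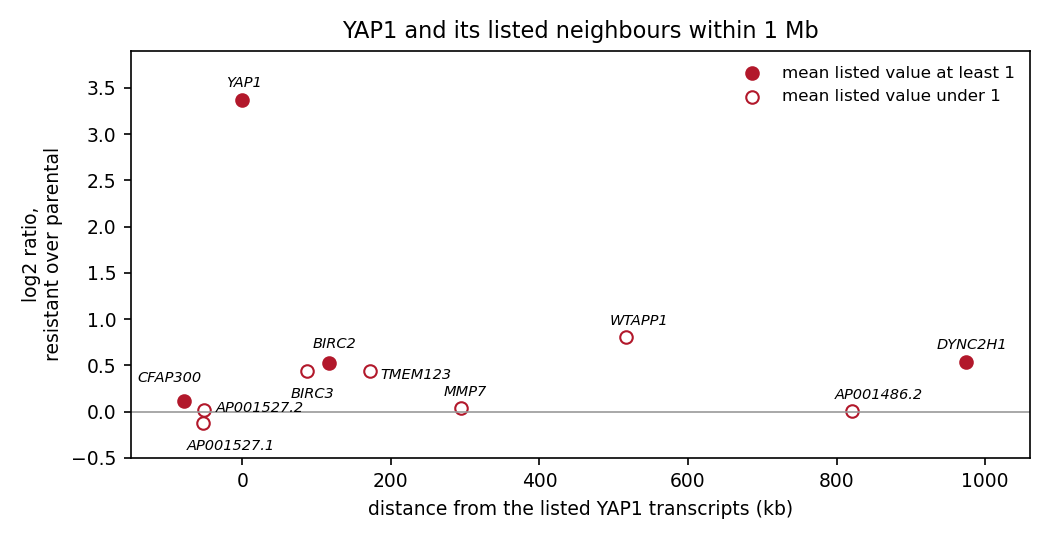
Log2 ratios of YAP1 and of the 10 other listed genes within 1 Mb, against distance from the listed YAP1 transcripts in kb; filled points have a mean listed value of at least 1. YAP1 stands at 3.37 and the neighbours between −0.12 and 0.80. Ratios use the pseudocount of 1, with which the unfilled points could not reach 2-fold.

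The expressed genes whose log2 ratio over these 2 libraries lay nearest to that of YAP1 were KIAA1191, SOD2 and GDI2. KIAA1191 had 31.9 in resistant and 2.40 in parental cells. SOD2, the mitochondrial superoxide dismutase, had 35.6 and 2.29, and GDI2, a regulator of Rab GTPases, 14.4 and 0.380. Their log2 ratios were 3.28, 3.47 and 3.48.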

How the data were processed

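Per the labels' protocols, total RNA of 1 parental and 1 resistant SKOV3 culture was sequenced after ribosomal depletion. HISAT2 and StringTie, without versions, and the mouse build mm10 stand in the submitters' processing notes. The deposited table carries human identifiers, and 43558 of its 47892 transcripts (91.0%) were found in GENCODE release 29, 98.4% of these with the same GRCh38 start and end. The authors deposited 1 normalized expression signal per transcript and library, with a log2 fold change and a raw and adjusted p-value, per the file headers. No header or label names the test behind these.

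The members and gene lists were chosen with earlier results of these data known. Listed values were summed per gene name, and log2 ratios used a pseudocount of 1. Expressed genes had a mean of at least 1, and transcripts were counted where the larger value was at least 0.1. The deposited fold changes equal ratios of whole counts (tolerance 0.001, scaled with the count) after adding 0.1142 (resistant) or 0.1358 (parental), which shows counts of 0. The recovery of these constants was tested on simulated data. Those counts follow the length of the locus and are not taken as reads. All genes and transcripts entered each background share. Named genes were the 10 members, transcripts with a larger value of at least 0.1, up to 6 expressed genes per list by absolute log2 ratio, CCN1 and CCN2, all genes within 1 Mb of YAP1, and the 3 genes nearest to it in ratio. No test was made, since each group has 1 library. Alternatives were pseudocounts of 0.1 and 5, rescaling by the median ratio, no filter on level, values at a count of 0 set to 0, transcripts left out where value ratio and deposited fold change differ by more than 0.3 (log2) after a common offset of 0.2846, and the largest transcript alone. A further one, chosen after seeing the data, left out the 742 rows whose transcript name ends in OT and a number. Python 3.11.15, numpy 2.4.6, pandas 2.3.3 and matplotlib 3.10.9 were used.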

Additional observations from a re-analysis of the deposited data

How the results depend on the processing

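The YAP1 log2 ratio kept its direction and stayed past 2-fold under every alternative run, from 1.84 with a pseudocount of 5 to 4.57 with 0.1. TEAD1 was 0.40 with a pseudocount of 5 and 0.998 after rescaling by the median ratio, both under 2-fold, so 1 pathway gene was at least 2-fold higher under each of these settings. With a pseudocount of 0.1, WWTR1 was 1.36 and STK4 1.30, both past 2-fold. TEAD2 was −0.025 after rescaling and −0.00427 from its largest transcript alone, with its sign turned. The STRIPAK and phosphatase median was −0.14 after rescaling and −0.35 from the largest transcript of each gene. At least 2-fold higher transcripts of the pathway numbered 7 with a pseudocount of 0.1, 1 with 5 and 1 after rescaling, and 2 were at least 2-fold lower with 0.1. Of genes at least 2-fold higher, the upstream regulators held 0 with a pseudocount of 5 and 1 after rescaling or from the largest transcript (2 in the report), the STRIPAK list 3 with 0.1 and 0 with 5 or after rescaling (1), the anchors 4 with 0.1 and 1 with 5 or after rescaling (2), and the targets 0 with 5 or after rescaling (1). Of genes at least 2-fold lower, the STRIPAK list held 0 with 5 or without rows named OT (1) and the anchors 2 with 0.1, after rescaling or from the largest transcript (1). Over these list counts, single transcripts, shares and neighbours of YAP1, 188 values held, 22 moved, 10 came past 2-fold and 2 went below it. The pseudocount and the rescaling change these values by construction, and the cause of the other changes was not tested. Some values also held by construction, as where a gene had no row named OT or no count of 0. In the whole table, 490 expressed genes lay past 2-fold upward and 252 downward (66.0% higher), against 351 and 378 after rescaling (48.1%), 957 and 434 with a pseudocount of 0.1, and 104 and 68 with 5. Leaving out the rows named OT was chosen after seeing the data. No paired analysis was possible because each group has 1 library. For the same reason no library could be left out. With the depth unknown, transcripts listed below 0.1 carry no statement of precision.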
